A study of Homo sapiens with 11 samples.

Results

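The mRNA levels of 10 heat shock protein and chaperone genes were followed in 2 cancer cell lines, MDA-MB-231 and SKOV3, that had been given miR-365a-3p. The genes are HSPA1A, HSPA8, HSPA5, HSP90AA1, HSP90AB1, HSP90B1, HSPD1, HSPE1, HSPB1 and DNAJB1. They were chosen, with earlier results of these data known, to cover the chaperones of the cytosol, the endoplasmic reticulum (ER) and the mitochondrion. They are 10 of the 31325 genes in the table. All 10 were found there, and the mean of each over the arrays lay above the floor of the measurement. MDA-MB-231 is an established human breast cancer cell line of the basal-like type, and SKOV3 is an established human ovarian cancer cell line, for which the study's text names the derivative SKOV3.ip1. Cells of each line received a miR-365a-3p mimic, a synthetic copy of the mature miRNA, or a control miRNA. MDA-MB-231 cells had 3 arrays per treatment, and SKOV3 cells had 3 arrays with miR-365a-3p and 2 with the control miRNA, 11 arrays in all. The sample labels give 48 h of treatment and the description of the series gives 24 h. No source used here says that the replicates were separate cultures, so the p-values measure the spread between these arrays, which may be technical. Each group is 1 cell line under 1 miRNA, and the controls were transfected too. In such bulk RNA, fewer cells that express a gene and less of its RNA per cell cannot be told apart.

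Chaperones bind unfolded or partly folded proteins and help them to reach and keep their shape. In the cytosol, the HSP70 proteins HSPA8 (constitutive) and HSPA1A (stress-inducible) bind client proteins with the help of J-domain partners such as DNAJB1, the HSP90 proteins HSP90AA1 and HSP90AB1 take over late folding steps of kinases and receptors, and the small heat shock protein HSPB1 holds unfolding proteins without using ATP. HSPA5 (BiP) and HSP90B1 (GRP94) are the HSP70 and HSP90 proteins of the ER, and HSPD1 (HSP60) with its lid HSPE1 (HSP10) forms the folding chamber of the mitochondrial matrix. Cytosolic chaperone genes are classic targets of the heat shock factor HSF1, and those of the ER are targets of the unfolded protein response.

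The sequence that was transfected is shown first, with its seed, bases 2 to 8 of the 22, in capitals. RefSeq places it on GRCh38.p14 at chr16:14309340-14309361, plus strand, in the miRNA gene MIR365A, and miR-365b-3p has the same mature sequence.
miR-365a-3p: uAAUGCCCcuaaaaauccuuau

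Parts of the RefSeq promoter windows of the genes follow, since they show what the genes of a compartment share and where near-identical copies lie. A window holds 250 bases before and 50 bases after an annotated start, and the 10 genes have 16 such windows among the 35116 of the table. The ER stress response element, searched on both strands by that name as CCAAT and CCACG with any 9 bases between them, was found in 0.0769% of all windows, in those of both ER genes and in none of the other 8 genes. HSP90B1 held it in each orientation. Capitals mark the match, coordinates are those of GRCh38.p14, and each line reads in the direction of the gene.
HSPA5, chr9:125241376-125241424, minus strand: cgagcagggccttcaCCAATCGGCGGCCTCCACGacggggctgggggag
HSP90B1, chr12:103930201-103930354, plus strand: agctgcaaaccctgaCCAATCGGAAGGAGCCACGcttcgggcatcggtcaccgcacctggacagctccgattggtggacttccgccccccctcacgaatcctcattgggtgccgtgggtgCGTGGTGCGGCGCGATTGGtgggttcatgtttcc

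The heat shock element, to which HSF1 binds, was searched as 3 units that alternate between GAA and TTC, starting with either, with any 2 bases between units. It was found in 0.490% of all windows and in those of 4 of the 10 genes, HSPA8, HSP90AA1, HSP90AB1 and HSPD1. HSPA8 and HSP90AB1 held it at 2 places, and in HSPD1 both forms overlapped.
HSPA8, chr11:123062347-123062373, minus strand: cgagcttGAAAGTTCCAGAAcgctgcg
HSPA8, chr11:123062172-123062198, minus strand: gggccccTTCTGGAAGGTTCtaagata
HSP90AA1, chr14:102087113-102087139, minus strand: agggttcTTCCGGAAGGTTCgggaggc
HSP90AB1, chr6:44247771-44247797, plus strand: gagcaggTTCTGGAAGATTCatgggct
HSP90AB1, chr6:44247824-44247850, plus strand: gagattgTTCTGGAAGCTTCtggattc
HSPD1, chr2:197500061-197500090, minus strand: gcattTTCTGGAAAGTTCTGGAAccgagcg

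A shorter form with 2 such units, which every match of the longer form contains, stood in 13.5% of all windows and in those of 7 of the 10 genes, HSPA1A, HSPB1 and DNAJB1 in addition to the 4 above. HSPA1A has a copy, HSPA1B, on the same strand of chromosome 6, and their 250 bases before the start were 93.6% identical. The stretches around the match are shown because the array reads the copies as 2 genes.
HSPA1A, chr6:31815412-31815469, plus strand: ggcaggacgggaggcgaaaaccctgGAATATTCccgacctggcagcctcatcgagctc
HSPA1B, chr6:31827608-31827665, plus strand: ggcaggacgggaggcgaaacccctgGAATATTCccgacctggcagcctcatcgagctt

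HSPD1 and HSPE1 stand head to head and are transcribed away from each other. The 104 bases between their annotated starts, shown in the direction of HSPE1, are printed because the pair shares them. RefSeq has 2 HSPD1 starts: these bases adjoin the one nearer to HSPE1, and the heat shock element shown above belongs to the window of the other, so that it lies downstream of the nearer start.
HSPD1 to HSPE1, chr2:197500275-197500378, plus strand: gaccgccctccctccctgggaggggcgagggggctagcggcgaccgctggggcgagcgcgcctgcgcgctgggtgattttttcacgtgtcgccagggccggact

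The array as a whole shifted with the treatment. In the deposited values, the 75th percentile of an array came to 7.62 ± 0.05 (SD, n = 3) under miR-365a-3p and 7.91 ± 0.04 (n = 3) under control miRNA for MDA-MB-231, and 7.74 ± 0.06 (n = 3) and 8.01 ± 0.04 (n = 2) in SKOV3 cells, whereas the 99th percentile was higher with miR-365a-3p in both lines. Levels below are therefore log2 values after quantile normalization of the 11 arrays, and the part of the shift in the results was not tested. With this scaling 4511 genes rose and 3663 fell in MDA-MB-231 cells, and 2275 and 5620 with the deposited values, and in SKOV3 cells the split was 2270 and 2228 against 1201 and 4401. Of the line markers in control cells, ERBB2 was higher in SKOV3 (10.86 against 7.61, adjusted p = 0.000109) and lower with miR-365a-3p there (9.29, adjusted p = 0.00842), and VIM did not separate the lines (13.79 and 13.70). The epithelial marker CDH1 lay at 7.27 and 7.43, PTPRC of blood cells at 7.28 and 7.30 and PECAM1 of endothelium at 7.39 and 7.39, all at or below the floor band of 7.43, the value under which 60% of all values lie. The hormone receptor gene ESR1 was at 7.28 in MDA-MB-231 and 8.83 in SKOV3 controls (adjusted p = 0.000862). COL1A1 of fibroblasts was at 8.51 in SKOV3 controls and at 7.36 to 7.46 in the means of the other groups.

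In MDA-MB-231 cells, miR-365a-3p raised the mRNA of 1 of the 10 chaperone genes, HSPE1, and lowered 3, HSPA5, HSP90AB1 and HSPB1 (limma, Benjamini-Hochberg adjusted p under 0.05 over all genes). Of all 31325 genes, 26.1% passed this test, 14.4% as a rise and 11.7% as a fall, and of the 12946 genes above the floor band 57.4% passed it, and the 4 of 10 lie between these shares. In SKOV3 cells HSPE1 rose and none of the 10 fell, with 14.4% of all genes called, 7.25% as a rise and 7.11% as a fall, and 32.2% of the genes above the floor band. HSPE1 was the only one of the 10 called in both lines, where 5.76% of all genes rose and 5.39% fell in both. The median difference of the 10 genes was −0.12 in MDA-MB-231 and 0.16 in SKOV3 cells on the log2 scale, beside 0.01 over all genes and 0.05 over the genes above the floor band in each line. No gene of the 10 passed the test for a difference of the response between the lines, which 2.54% of all genes and 5.57% of those above the floor band did, and at an unadjusted p under 0.05 only HSP90AA1 did. With a block for the replicate number shared by the miR-365a-3p arrays of both lines, chosen after seeing the data, HSPA5 passed it (adjusted p = 0.0200). Over all genes that block called 672 higher and 664 lower for the difference, against 388 and 408 without it. Without control replicate 3, only 2 of the 10 were called in MDA-MB-231 cells, HSPE1 and HSPB1. In SKOV3 cells 2 were called without replicate 1 of miR-365a-3p in either line or without replicate 2 of miR-365a-3p in SKOV3.

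**Figure D1:**
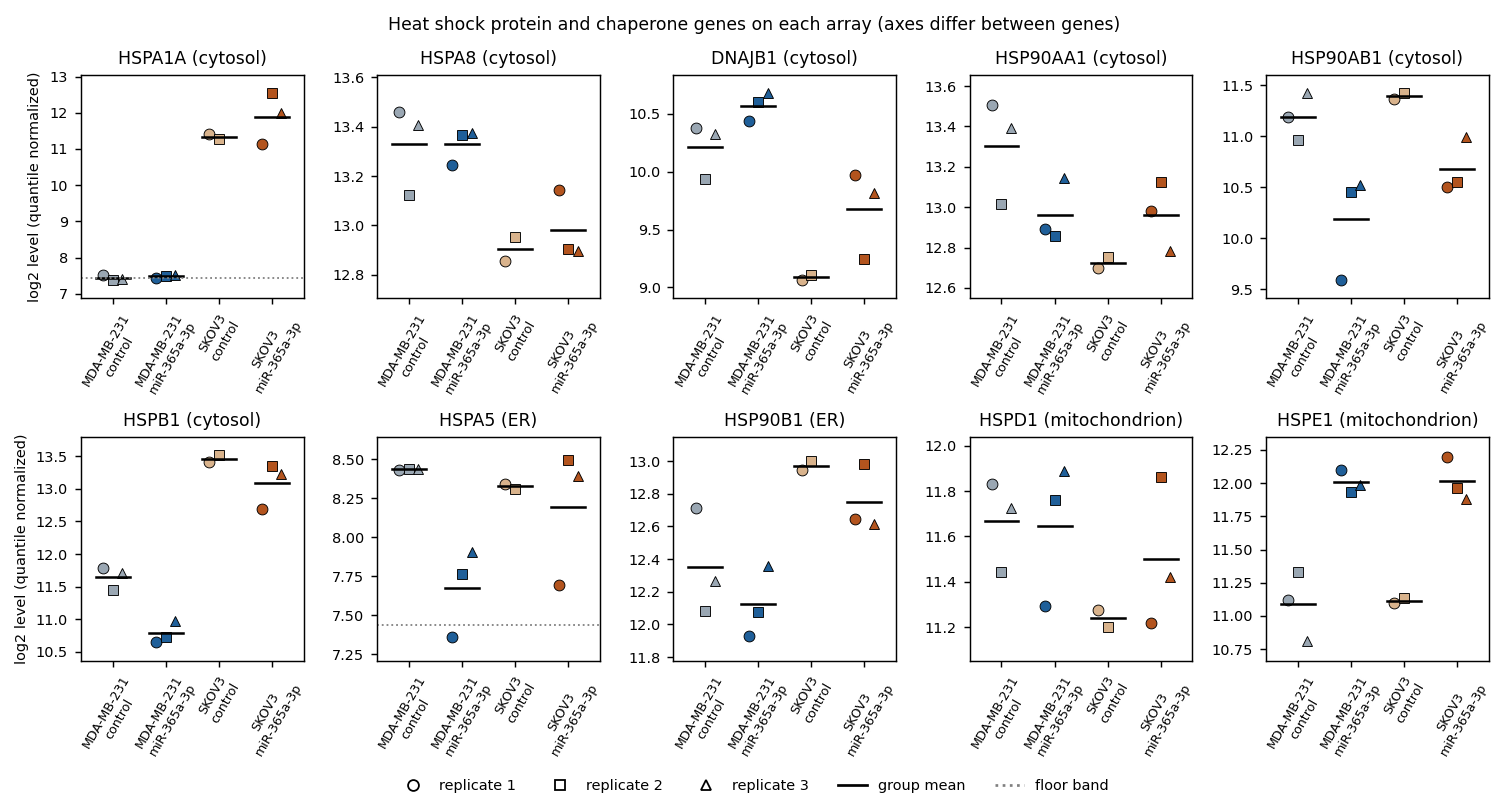
Log2 level after quantile normalization (y axis, a separate range for each gene) of the 10 chaperone genes on each array, by cell line and treatment. Points are arrays, their shape the replicate number, black lines the group means and dotted lines the floor band at 7.43. HSPE1 lies between 11.88 and 12.20 on the miR-365a-3p arrays and between 10.81 and 11.33 on the control arrays, and HSPA1A lies on the floor band in MDA-MB-231 cells.

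HSPE1, the lid of the mitochondrial folding chamber, rose in both lines by almost the same amount. In MDA-MB-231 cells its level was 11.12, 11.33 and 10.81 on the control arrays and 12.10, 11.93 and 11.98 on the miR-365a-3p arrays. In SKOV3 cells it was 11.10 and 11.13 on the control arrays and 12.20, 11.96 and 11.88 on the miR-365a-3p arrays. Every treated array lay above every control array, also across the lines. The log2 difference was 0.92 (95% interval 0.63 to 1.21, 1.89-fold, adjusted p = 0.000907) in MDA-MB-231 and 0.90 (0.58 to 1.22, 1.87-fold, adjusted p = 0.00349) in SKOV3 cells. The difference between the 2 responses was 0.01 (−0.42 to 0.45), and the control levels of the lines differed by −0.02 (−0.35 to 0.30), so that differences of up to about that size in either direction could not be seen. An exact permutation of the treatment within the lines, two-sided over 200 arrangements, gave p = 0.005 for the mean of the 2 responses, the smallest it can give. The rise was called under every alternative tried, with a log2 difference between 0.78 and 1.13 in MDA-MB-231 and between 0.75 and 1.01 in SKOV3 cells.

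HSPD1, the chamber itself, did not share this rise. Its levels in MDA-MB-231 cells were 11.83, 11.44 and 11.73 with control miRNA and 11.29, 11.76 and 11.89 with miR-365a-3p. In SKOV3 cells they were 11.27 and 11.20 with control miRNA and 11.22, 11.86 and 11.42 with miR-365a-3p. Treated and control arrays overlapped in both lines. The log2 difference was −0.02 (−0.47 to 0.43, adjusted p = 0.971) in MDA-MB-231 and 0.26 (−0.24 to 0.76, adjusted p = 0.6003) in SKOV3 cells. The response of HSPE1 exceeded that of HSPD1 by 0.93 and 0.64 in the 2 lines, a difference of 2 differences that has no test here.

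HSPA5, the HSP70 protein of the ER, fell in MDA-MB-231 cells. There it stood at 8.43, 8.44 and 8.44 on the control arrays and at 7.36, 7.76 and 7.90 on the miR-365a-3p arrays, the first of which lay below the floor band. All treated arrays lay below all controls, by 0.76 on average (log2 difference −0.76, −1.23 to −0.29, 1.70-fold lower, adjusted p = 0.024). In SKOV3 cells the levels were 8.34 and 8.31 with control miRNA and 7.69, 8.49 and 8.39 with miR-365a-3p. There only replicate 1 was low, the groups overlapped, and the difference was −0.13 (−0.66 to 0.39, adjusted p = 0.852). The difference between the lines, −0.63 (−1.33 to 0.08), had an adjusted p of 0.461, and of 0.0491 without SKOV3 miR-365a-3p replicate 1. A block for the replicate number shared by the miR-365a-3p arrays of both lines, chosen after seeing the data, gave 0.0200. The replicate block within each line ended the call of HSPA5 in MDA-MB-231 (adjusted p = 0.0579). Leaving out any 1 of the MDA-MB-231 arrays other than miR-365a-3p replicate 3 took the call away, with adjusted p between 0.0515 and 0.0843 and a log2 difference of −0.60 without miR-365a-3p replicate 1. The exact permutation over both lines gave p = 0.05.

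HSP90B1, the HSP90 protein of the ER, showed no called difference. In MDA-MB-231 cells its levels were 12.71, 12.08 and 12.26 with control miRNA and 11.93, 12.08 and 12.36 with miR-365a-3p. In SKOV3 cells they were 12.94 and 13.00 with control miRNA and 12.65, 12.98 and 12.62 with miR-365a-3p. The groups overlapped in each line, and the log2 differences were −0.23 (−0.63 to 0.17, adjusted p = 0.445) and −0.22 (−0.67 to 0.22, adjusted p = 0.621). Both ER genes carry the ER stress response element shown above, and of the 2 only HSPA5 was called, in MDA-MB-231 cells.

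HSP90AB1, the constitutive HSP90 protein of the cytosol, fell by the most of the 10 genes in MDA-MB-231 cells. Its level was 11.19, 10.97 and 11.42 with control miRNA and 9.59, 10.46 and 10.52 with miR-365a-3p, a log2 difference of −1.003 (−1.57 to −0.44, 2.004-fold lower, adjusted p = 0.016). In SKOV3 cells HSP90AB1 was 11.37 and 11.42 with control miRNA and 10.50, 10.55 and 10.99 with miR-365a-3p, a log2 difference of −0.71 (−1.34 to −0.08, adjusted p = 0.144). Treated arrays lay below the controls within each line, while the highest treated array of SKOV3 (10.99) lay above the lowest control array of MDA-MB-231 (10.97). The exact permutation over both lines gave p = 0.01. In MDA-MB-231 cells replicate 1 of miR-365a-3p was the lowest array, and without it the difference was −0.70, still called. Without control replicate 3 the adjusted p there was 0.0624, and in SKOV3 cells it was 0.0276 without replicate 1 of miR-365a-3p in MDA-MB-231.

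HSP90AA1, the inducible HSP90 protein, had log2 differences of opposite sign in the 2 lines. In MDA-MB-231 cells it was 13.51, 13.02 and 13.39 with control miRNA and 12.89, 12.85 and 13.14 with miR-365a-3p, a difference of −0.34 (−0.66 to −0.03, adjusted p = 0.114). In SKOV3 cells HSP90AA1 was 12.70 and 12.75 with control miRNA and 12.98, 13.12 and 12.78 with miR-365a-3p, a difference of 0.24 (−0.11 to 0.59, adjusted p = 0.446). The groups overlapped in MDA-MB-231 and not in SKOV3 cells. The difference between the responses was −0.58 (−1.05 to −0.11, adjusted p = 0.259). Without control replicate 2 the difference in MDA-MB-231 cells had an adjusted p of 0.018.

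The HSP70 proteins of the cytosol did not pass the test in either line. HSPA8 lay between 13.12 and 13.46 on all 6 MDA-MB-231 arrays and between 12.85 and 13.15 on all 5 SKOV3 arrays. Its log2 differences were −0.00 (−0.22 to 0.22) and 0.08 (−0.17 to 0.33), the narrowest intervals of the 10 genes. HSPA1A, the stress-inducible gene, lay on the floor band in MDA-MB-231 cells, at 7.53, 7.39 and 7.41 with control miRNA and 7.44, 7.48 and 7.51 with miR-365a-3p, so that no fold can be given there. In SKOV3 cells it was at 11.40 and 11.27 with control miRNA and at 11.14, 12.54 and 12.00 with miR-365a-3p, a log2 difference of 0.55 (−0.17 to 1.27, adjusted p = 0.359). Replicate 1 was below both controls and the other 2 were above them, and without replicate 1 the difference was 0.93 (adjusted p = 0.00583). Its copy HSPA1B was above the floor band in both lines. It was at 10.36, 10.10 and 10.48 with control miRNA and 8.99, 10.10 and 10.48 with miR-365a-3p in MDA-MB-231 cells, and at 10.73 and 10.54 with control miRNA and 9.99, 11.38 and 11.40 with miR-365a-3p in SKOV3 cells. Replicate 1 was the lowest treated array of HSPA1B in both lines. Only the promoters of the copies were compared, so which copy a reading comes from was not tested. In MDA-MB-231 controls the mean of HSPA1A was 7.44, at the floor band, and that of HSPA1B was 10.31.

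DNAJB1, the J-domain partner that HSF1 induces together with HSPA1A, was higher on every miR-365a-3p array than on every control array of its line without passing the test. The levels were 10.37, 9.94 and 10.33 with control miRNA and 10.43, 10.60 and 10.68 with miR-365a-3p in MDA-MB-231 cells, a log2 difference of 0.36 (−0.06 to 0.78, adjusted p = 0.228). In SKOV3 cells they were 9.07 and 9.11 with control miRNA and 9.97, 9.24 and 9.82 with miR-365a-3p, a difference of 0.59 (0.12 to 1.06, adjusted p = 0.104). Without replicate 2 of miR-365a-3p in SKOV3, the adjusted p there was 0.00895. The exact permutation over both lines gave p = 0.025.

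HSPB1, the small heat shock protein, fell in MDA-MB-231 cells. Its level was 11.79, 11.44 and 11.71 with control miRNA and 10.65, 10.72 and 10.98 with miR-365a-3p, a log2 difference of −0.86 (−1.26 to −0.47, 1.82-fold lower, adjusted p = 0.00585). In SKOV3 cells HSPB1 was 13.41 and 13.51 with control miRNA and 12.68, 13.35 and 13.23 with miR-365a-3p, a difference of −0.37 (−0.81 to 0.07, adjusted p = 0.297). Treated arrays lay below the controls in both lines, closely so for 2 of the 3 in SKOV3 cells. The difference between the lines was −0.49 (−1.08 to 0.10, adjusted p = 0.504). The exact permutation over both lines gave p = 0.01, and the fall in MDA-MB-231 cells was called under every alternative tried. The 10 exact tests, 1 per gene, carry no adjustment, and HSPA1A, HSPA8, HSP90AA1, HSP90B1 and HSPD1 had p between 0.12 and 0.71.

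**Figure D2:**
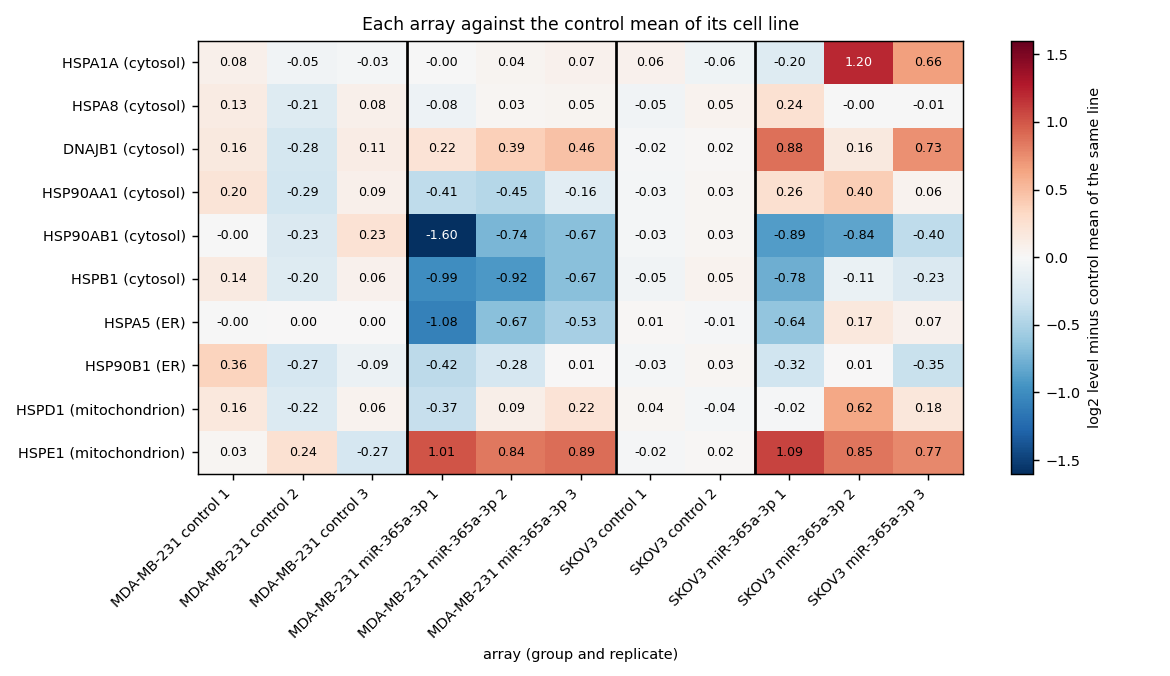
Log2 level of each chaperone gene on each array minus the control mean of the same cell line, printed in the cell and shown by colour. HSPE1 lies between 0.77 and 1.09 on all 6 miR-365a-3p arrays and HSP90AB1 between −1.60 and −0.40, while HSPA5 and HSPA1A change from array to array in SKOV3 cells.

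The small proteins of the set, HSPE1 and HSPB1, did not move together. In MDA-MB-231 cells the one rose and the other fell, 1.78 apart on the log2 scale, and in SKOV3 cells their differences lay 1.28 apart. Their mean response was 0.03 in MDA-MB-231 and 0.26 in SKOV3 cells, against −0.25 and 0.08 for the mean of the 8 genes of large proteins. Small minus large was thus 0.27 in MDA-MB-231 cells, with a pooled SD between arrays of 0.19, and 0.18 in SKOV3 cells, with a pooled SD of 0.05. On single arrays of MDA-MB-231 cells this score was 0.32, 0.59 and 0.21 with control miRNA and 0.85, 0.53 and 0.56 with miR-365a-3p, which overlap. In SKOV3 cells it was 1.01 and 1.07 with control miRNA and 1.28, 1.20 and 1.19 with miR-365a-3p, which do not. A mean of 1 gene that rose and 1 that was lower stands for neither, and the score has no test. The 8 include HSPA1A, which lay on the floor band in MDA-MB-231 (difference 0.04) and had 0.55 in SKOV3 cells. No score without HSPA1A was computed.

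**Figure D3:**
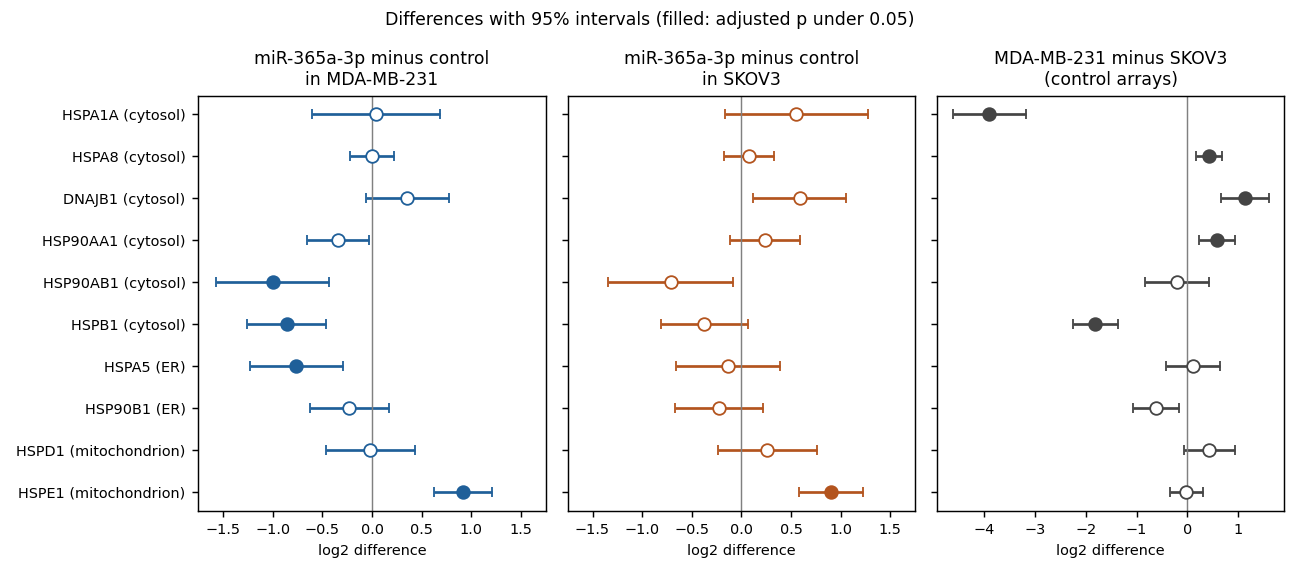
Log2 differences (x axis) of the 10 chaperone genes with 95% intervals from the limma fit, for miR-365a-3p minus control miRNA in each cell line and for MDA-MB-231 minus SKOV3 control cells, whose panel has a wider axis. Filled points have an adjusted p under 0.05: HSPE1 in both lines, HSP90AB1, HSPB1 and HSPA5 in MDA-MB-231 cells, and 5 genes between the lines.

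Under control miRNA the largest differences between the lines among the 10 genes were those of HSPA1A and HSPB1, and the smallest was that of HSPE1. In control cells 5 of the 10 genes were called, 3 higher in MDA-MB-231 (HSPA8, HSP90AA1 and DNAJB1) and 2 higher in SKOV3 (HSPA1A and HSPB1), beside 16.1% of all genes, 7.76% and 8.34% in these directions, and 34.9% of those above the floor band. HSPA1A had a log2 difference of −3.90 (MDA-MB-231 minus SKOV3, 95% interval −4.62 to −3.18, adjusted p = 5.59e-05). It lies on the floor in MDA-MB-231, and with values there set to no less than the floor band its mean was 14.7-fold higher in SKOV3. Its copy HSPA1B had control means of 10.31 in MDA-MB-231 and 10.63 in SKOV3 cells. No probe sequences were compared, so which copy a reading comes from was not tested. HSPB1 had a log2 difference of −1.81 (3.51-fold higher in SKOV3, adjusted p = 0.000255). DNAJB1 was 1.13 higher in MDA-MB-231 (2.18-fold, adjusted p = 0.00539). HSPA8 by 0.43 (adjusted p = 0.0293) and HSP90AA1 by 0.58 (adjusted p = 0.0333) were the smaller differences, and both calls were lost without either SKOV3 control array, without MDA-MB-231 control replicate 1 or 3, with cyclic loess, with the 2 control groups fitted alone and with the replicate block. Of the 10 genes, 3 remained called without either SKOV3 control array or without MDA-MB-231 control replicate 3. HSP90B1 had a difference of −0.62 (adjusted p = 0.0680), and HSPA5, HSPD1, HSP90AB1 and HSPE1 had adjusted p between 0.300 and 0.967. Over the 4 groups, the mean of HSPB1 was 13.46 ± 0.07 (SD, n = 2) in SKOV3 controls, 13.09 ± 0.36 (n = 3) in treated SKOV3 cells, 11.65 ± 0.18 (n = 3) in MDA-MB-231 controls and 10.79 ± 0.17 (n = 3) in treated MDA-MB-231 cells, with no overlap between neighbours. For HSPE1 the order followed the treatment, 12.02 ± 0.16 (n = 3) and 12.00 ± 0.08 (n = 3) in treated SKOV3 and MDA-MB-231 cells and 11.11 ± 0.03 (n = 2) and 11.09 ± 0.26 (n = 3) in their controls, and the lines overlapped within each treatment.

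Another 93 genes of 9 chaperone lists were read beside the 10. In MDA-MB-231 cells 29 of them rose and 15 fell, and in SKOV3 cells 23 rose and 4 fell, with 15 rises and 3 falls in both lines and none of opposite sign. These 44 and 27 of 93 stand beside 26.1% and 14.4% of all genes, and 57.4% and 32.2% of those above the floor band, where 80 of the 93 lay. The list counts that follow are read beside the same shares. With the deposited values the split was 19 and 18 in MDA-MB-231 and 15 and 8 in SKOV3 cells. In SKOV3 cells leaving out either control replicate left 1 control array, and fewer of the 93 genes and of all genes were called. Of the genes named below BAG3, CHORDC1, SIL1 and CCT2 were called in SKOV3 cells under every alternative. Of the other genes called there, HSPA14 lost its SKOV3 call in 12 alternatives, DNAJB4 in 9 and C1orf41 in 8. CLPX lost it in 6, P4HB in 4, VBP1 in 3, and PTGES3 and CRYAB in 1 each.

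Among the subunits of the cytosolic chaperonin CCT, which folds actin and tubulin, and of prefoldin, which hands it its clients, there were called rises in both lines. None was called as a fall. In MDA-MB-231 cells 12 of 14 rose and none fell, with a median of 0.60, and in SKOV3 cells 6 of 14 rose and none fell, with a median of 0.50, beside 0.05 for all genes above the floor band. With cyclic loess 8 and 3 rose and none fell. VBP1, the only prefoldin subunit called in both lines, rose by 1.37 (adjusted p = 0.00092) in MDA-MB-231 and by 1.00 (adjusted p = 0.0147) in SKOV3 cells. CCT2, chosen after its values were seen, went from 11.56, 11.62 and 11.82 to 12.57, 12.69 and 12.57 in MDA-MB-231 and from 11.46 and 11.37 to 12.50, 12.15 and 12.37 in SKOV3 cells, called in both (adjusted p = 0.000182 and 0.000754). Its sister subunit TCP1, chosen likewise, had differences of −0.35 (adjusted p = 0.360) and −0.08 (adjusted p = 0.936), with treated and control arrays overlapping.

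Among J-domain proteins, 7 of 19 rose and 1 fell in MDA-MB-231 and 10 rose in SKOV3 cells, with medians of 0.21 and 0.33. With the deposited values 6 rose and 2 fell in each line. DNAJB4, a relative of DNAJB1, rose by 1.46 (adjusted p = 0.00112) and 0.90 (adjusted p = 0.0349). It went from 8.45, 8.14 and 8.39 to 10.06, 9.70 and 9.59 in MDA-MB-231 and from 8.12 and 8.12 to 9.54, 8.78 and 8.76 in SKOV3 cells. Of the HSP70 relatives, 2 of 13 rose and 2 fell in MDA-MB-231 and 2 rose in SKOV3 cells. HSPA14, a ribosome-associated member, rose by 0.73 (adjusted p = 0.0163) and 0.74 (adjusted p = 0.0411). Its call in MDA-MB-231 was lost with cyclic loess (adjusted p = 0.0507), with the replicate block (adjusted p = 0.0653) and without miR-365a-3p replicate 1 or control replicate 1 or 2, and that in SKOV3 was lost in 12 alternatives. HSPA9, the HSP70 protein of the mitochondrion, was chosen after its values were seen because it works beside HSPD1 and HSPE1. It fell by 1.53 on the log2 scale for MDA-MB-231 (adjusted p = 0.0170), going from 11.72, 11.33 and 11.43 to 9.40, 10.07 and 10.42, and the call was lost without replicate 1 of miR-365a-3p (adjusted p = 0.0618) or control replicate 1 (adjusted p = 0.0579). In SKOV3 cells it stood at 11.01 and 11.08 with control miRNA and at 9.32, 10.72 and 10.67 with miR-365a-3p (adjusted p = 0.315). In the same mitochondrial compartment HSPE1 thus rose, HSPA9 fell and HSPD1 was not called for MDA-MB-231.

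The HSP70 exchange factors and BAG genes held the largest fall of all the chaperone genes read. BAG3, which links HSP70 to the small heat shock proteins and to autophagy, went from 9.46, 9.68 and 9.89 to 7.35, 7.58 and 7.66 in MDA-MB-231 cells, where 1 treated array lay below the floor band, and from 9.35 and 9.46 to 7.55, 7.89 and 7.81 in SKOV3 cells. It fell by 2.14 (adjusted p = 1.57e-05) and by 1.66 (adjusted p = 0.000179) on the log2 scale. SIL1, the exchange factor of HSPA5 in the ER, rose by 0.72 (adjusted p = 6e-05) and 0.55 (adjusted p = 0.000815). Of this list of 9, 2 rose and 4 fell in MDA-MB-231 and 1 rose and 1 fell in SKOV3 cells.

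HSP90 co-chaperones split. Of the 11 genes on that list, 1 rose and 4 fell in MDA-MB-231 and 2 rose and 1 fell in SKOV3 cells. PTGES3 (p23), which binds HSP90 in its closed state, fell by 1.49 (adjusted p = 0.000543) and 1.16 (adjusted p = 0.00656) on the log2 scale, from 11.83, 12.00 and 12.21 to 10.21, 10.93 and 10.44 in MDA-MB-231 and from 12.66 and 12.55 to 11.22, 11.65 and 11.47 in SKOV3 cells. CHORDC1, an HSP90-binding protein, rose by 1.37 (adjusted p = 0.000537) and 1.14 (adjusted p = 0.00479).

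In the ER, 1 of 10 folding genes rose and 2 fell in MDA-MB-231 cells, and 1 fell in SKOV3 cells. P4HB, a protein disulfide isomerase, fell by 0.69 (adjusted p = 0.000651) and 0.52 (adjusted p = 0.00863) on the log2 scale. Of 6 mitochondrial quality control genes, 1 rose and 1 fell in MDA-MB-231 and 1 rose in SKOV3 cells. CLPX, which unfolds proteins for the matrix protease CLPP, rose by 0.52 (adjusted p = 0.00205) and 0.39 (adjusted p = 0.0278), and neither rise was called with the deposited values. LONP1, the other main matrix protease, chosen after its values were seen, fell by 0.98 (adjusted p = 0.00137) on the log2 scale in MDA-MB-231 and had a difference of −0.40 (adjusted p = 0.164) in SKOV3 cells. The list of heat shock factors held 4 genes, HSF1, HSF2, HSF4 and the factor-binding HSBP1, with 2 of them above the floor band. Of these 4, 1 rose and 1 fell in MDA-MB-231 and none passed in SKOV3 cells. The genes that were lower in MDA-MB-231 cells, HSF1 (7.47 to 7.35) and HSF4 (7.36 to 7.32), lay near or below the floor band. The small heat shock proteins besides HSPB1 had only 3 of 7 genes above the floor band, with 2 rises in MDA-MB-231 and 1 rise and 1 fall in SKOV3 cells. C1orf41, deposited under that older symbol and now named IFT25, once counted as a small heat shock protein, rose by 0.68 (adjusted p = 0.00578) and 0.57 (adjusted p = 0.0362), the first not called with the deposited values (adjusted p = 0.0680).

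**Figure D4:**
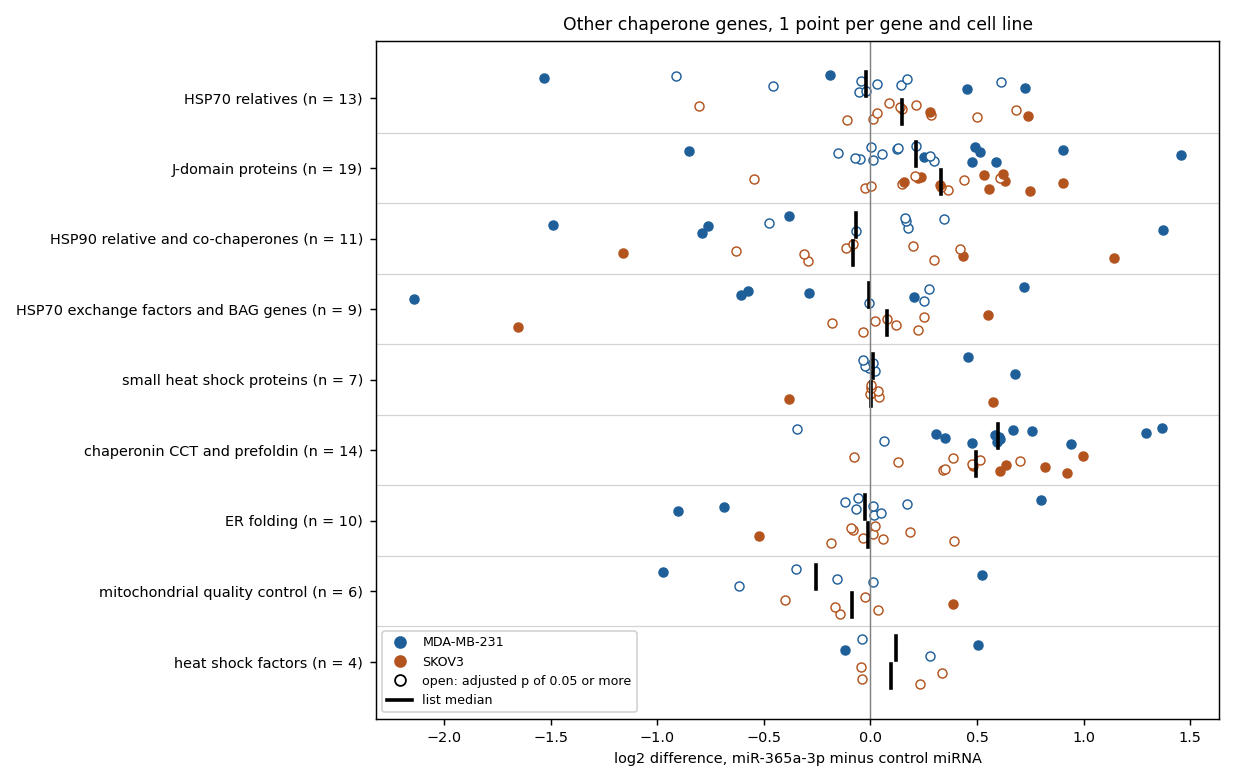
Log2 difference of miR-365a-3p minus control miRNA (x axis) for 93 other chaperone genes in 9 lists, 1 point per gene, MDA-MB-231 cells above SKOV3 cells in each list. Filled points have an adjusted p under 0.05 and black bars are list medians, which are 0.60 and 0.50 for CCT and prefoldin and between −0.25 and 0.33 for the other lists.

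The genes whose levels followed those of 9 of the chaperones most closely over the 11 arrays, among the 12946 above the floor band, were named by Pearson's r as a description, since arrays of 1 line and treatment share most of the pattern. For HSPB1 this was ASAM at 0.992, for DNAJB1 SFXN1 at 0.985, for HSP90AB1 the splicing factor EFTUD2 at 0.970, and for HSPD1 the Mediator subunit MED20 at 0.956. The nearest to HSPA5 was LOC643387 at 0.984, to HSP90B1 MEIS3P1 at 0.966, to HSP90AA1 LOC653162 at 0.946 and to HSPA8 SH2D4A at 0.972. HSPA1A, which separates the lines, had MST4 at 0.999.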

How the data were processed

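Biotin-labelled cRNA from 11 samples was read on Illumina bead arrays. The authors normalized the signals by quantiles in lumi. The values they deposited, 1 for each gene symbol on each array, were taken as log2 values, and the folds rest on that. Which of lumi's transformations produced them, the background step, the version of lumi and how probes of a gene were combined are not given in the sources used here. No detection call was used. The deposited columns did not share 1 distribution, so all 11 were brought to the same quantiles (limma 3.58.1, R 4.3.3). All 31325 genes entered 1 limma fit of the 4 groups with eBayes, and Benjamini-Hochberg adjustment ran over the whole table (threshold 0.05). The floor band is the 60th percentile of all values.

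The 10 genes and the chaperone lists were chosen with earlier results of these data known, and no list was tested as a set. All 10 are named, and in each list the gene with the largest rise and fall among those called in both lines, and genes called for the difference between the lines. Others were named after their values were seen. The gene nearest in pattern to HSPE1 and 1 marker of the lines are not reported here. HSPB11 was read under its deposited symbol C1orf41. Of the 103 symbols, 101 are current and 2 are older. Promoter windows and the miRNA are from RefSeq tables of GRCh38.p14. Neither protein sequences nor seed sites in transcripts were analysed here, so small and large proteins are told apart by background knowledge only.

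Replicate numbers were checked by correlating deviations from the group means. Within a line, treated and control arrays of like number did not pair (r between −0.13 and 0.20). Same-numbered miR-365a-3p arrays of the 2 lines had r = 0.67, 0.29 and 0.34. Of the unlike-numbered ones, MDA-MB-231 replicate 3 and SKOV3 replicate 2 had r = 0.60, and the others lay between −0.70 and 0.05. The replicate numbers are thus at most a weak hint of a pairing, from the data alone. A block shared by the same-numbered arrays was added for the difference between the lines. No 2 arrays were duplicates. Alternatives were the deposited values, median centring, cyclic loess, separate fits, a replicate block, only genes above the median of gene means, an intensity trend with robust hyperparameters, a log2 difference of at least 0.5, DNAJB1 left out of the large proteins, and each array left out in turn. On simulated data, 200 of 31325 genes, drawn at random from the whole table and so mostly below the floor band, had a log2 change of 1. The noise was independent between arrays, and no shift of the arrays was simulated. The fit recovered 96% in MDA-MB-231 and 96% in SKOV3 cells, with 9 and 12 unchanged genes called. These shares hold for that setting only and were not measured for the chaperone genes.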

Additional observations from a re-analysis of the deposited data

Results flagged for a closer look

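The response of 2 small heat shock protein genes, neither of them among the 10, differed between the cell lines by the test of the difference itself. CRYAB, alpha-B-crystallin, had a log2 difference of 0.02 in MDA-MB-231 cells and of −0.38 in SKOV3 cells, and the responses differed by 0.41 (limma, adjusted p = 0.0408). It lay at 7.28 to 7.35 on all MDA-MB-231 arrays, at or below the floor band, and at 8.10 and 8.09 on the SKOV3 control arrays against 7.59, 7.70 and 7.85 with miR-365a-3p, so that a fall could be seen only in SKOV3 cells. The call was lost when any 1 of 9 arrays was left out, with adjusted p up to 0.176. HSPB8, the partner of BAG3, had a log2 difference of 0.46 in MDA-MB-231 cells and of 0.00 in SKOV3 cells, and the responses differed by 0.46 (adjusted p = 0.00891). It went from 7.45, 7.59 and 7.55 to 7.97, 8.07 and 7.92 in MDA-MB-231 cells and lay at 7.33 to 7.36 on the SKOV3 arrays, below the floor band. With the deposited values the adjusted p of its difference was 0.397. The part of the floor in either difference was not tested. No group had the 4 arrays that a search for outlying arrays needs.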

How the results depend on the processing

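The rise of HSPE1 in both lines and the fall of HSPB1 in MDA-MB-231 kept their direction and stayed under an adjusted p of 0.05 in all 19 alternatives. Over all single-gene comparisons, 1292 of the alternative values kept direction and side of the threshold, 92 lost the call, 15 gained it and 45 changed sign, and for the counts 127 stayed within 1.5 times and 29 did not. The causes were not tested.

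Leaving out 1 array at a time gave 2 to 4 of the 10 genes called in MDA-MB-231, 1 to 2 in SKOV3, 0 to 2 for the difference between the lines (2 without SKOV3 miR-365a-3p replicate 1) and 3 to 5 between the controls. Of the other chaperone genes it gave 35 to 47, 11 to 33, 0 to 2 and 15 to 35, the last with 18 and 15 without SKOV3 control replicates 1 and 2. Small minus large ran from 0.17 to 0.38 in MDA-MB-231 and from 0.15 to 0.21 in SKOV3, and the SKOV3 value was 0.29 with the deposited values, 0.29 with median centring and 0.26 without DNAJB1. Cyclic loess called 3 of the 10 between the controls. For the difference between the lines, 1 other chaperone gene was called with the deposited values and 1 with median centring. Between the controls of the lines, 2177 genes of the table were higher and 3846 lower with the deposited values, against 2430 and 2613. With median centring 3370 rose and 4879 fell in MDA-MB-231 and 1729 and 3630 in SKOV3.

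The replicate block within each line called 3, 1, 0 and 3 of the 10 genes in MDA-MB-231, SKOV3, the difference and the controls, and 38, 21, 0 and 33 of the other chaperone genes. Over all 31325 genes it called 3781 rises and 2977 falls in MDA-MB-231 and 1583 and 1514 in SKOV3. For the difference it called 45 higher and 78 lower, and between the controls 2225 and 2409. HSPA5 in MDA-MB-231 then had an adjusted p of 0.0579. It turned the difference of HSPE1 between the responses to −0.052 and between the controls to 0.047, and HSPB8 in SKOV3 to −0.000353. The block shared by the miR-365a-3p arrays of both lines, chosen after seeing the data, called 1 of the 10 genes and 7 others for the difference. Over all genes it called 672 higher and 664 lower, against 388 and 408 without it. Leaving out replicate 1 of miR-365a-3p in both lines, also chosen after seeing the data, called 2 of the 10 in SKOV3, and 1 of the 10 and 7 others for the difference. That fit called 2262 rises and 2098 falls over all genes in SKOV3, and 609 higher and 665 lower for the difference. It turned HSPA8 to 0.040 in MDA-MB-231, −0.0050 in SKOV3 and 0.045 for the difference, HSPA5 in SKOV3 to 0.12, HSP90B1 for the difference to 0.039, HSPD1 in MDA-MB-231 to 0.16 and TCP1 in SKOV3 to 0.054.

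Other changes of sign were in differences that did not pass the test. Cyclic loess gave −0.088 for HSPA8 in SKOV3. The deposited values gave −0.048 for HSPA1A, 0.23 for HSPA8 and 0.11 for HSPD1 in MDA-MB-231, −0.021 for HSPB8 in SKOV3 and −0.000169 for HSPA5 between the controls. Median centring gave −0.015 for HSPA1A, 0.26 for HSPA8, 0.013 for HSP90B1 and 0.14 for HSPD1 in MDA-MB-231, and 0.037 for HSP90B1 in SKOV3. With 1 array left out, HSPA8 ran from −0.10 to 0.064 in MDA-MB-231, from −0.0050 to 0.13 in SKOV3 and from −0.18 to 0.0037 for the difference. HSPA5 in SKOV3 ran from −0.29 to 0.12, HSPD1 in MDA-MB-231 from −0.14 to 0.16, HSPB8 in SKOV3 from −0.011 to 0.013 and TCP1 in SKOV3 from −0.19 to 0.054. For the difference, HSP90AB1 ran from −0.46 to 0.0072, HSP90B1 from −0.14 to 0.17 and HSPE1 from −0.12 to 0.14, and HSPE1 between the controls from −0.15 to 0.11. The number of arrays limits the precision, and genes at the floor band could show no fall.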
